A study of Mus musculus with 24 samples.

Results

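The 10 genes described here encode the CD28 family receptors *Cd28*, *Icos*, *Ctla4*, *Pdcd1* and *Btla*, the inhibitory receptors *Lag3*, *Tigit*, *Havcr2* and *Cd160*, and *Cd274*. They were taken by name from 35868 genes, by a rule that used no threshold on expression. *Cd274* encodes PD-L1, which is a ligand and not a receptor, and was kept because it is the partner of the receptor encoded by *Pdcd1*. All 10 genes passed the filter on low counts in every fit, which kept 15975 genes in CD8+, 17243 genes in CD4+ and 19092 genes across all libraries.

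Receptors of the CD28 family sit on the T cell surface and adjust the signal of the T cell receptor. CD28 and ICOS add a costimulatory signal, whereas CTLA-4, which competes with CD28 for the same ligands, PD-1 (*Pdcd1*) and BTLA dampen activation. LAG-3, TIGIT, TIM-3 (*Havcr2*) and CD160 are further receptors found on activated T cells, and several of them accumulate together on T cells under lasting antigen exposure.

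RNA sequencing covered 24 libraries in 8 groups of 3, which were CD4+ or CD8+ spleen T cells of *Cat-Tg* or WT mice, either fresh (pre-tx) or on day 7 after transfer into lethally irradiated BALB/c mice (post-tx). *Cat-Tg* mice, by the labels on a C57BL/6 background, carry a transgene of truncated human β-catenin, placed in a vector that uses the proximal *Lck* promoter of T cells, and WT mice were C57BL/6 without it. The study's methods describe several founder lines, and those used for sequencing were not given in the sources used here. Mice were 8 to 12 weeks old and matched for age and sex by the methods. Post-tx donor T cells were a mixture of CD4+ and CD8+ cells given with T cell-depleted WT marrow, and were sorted again by the donor H-2Kb antigen. Each mouse gave both a CD4+ and a CD8+ sample, so those libraries share animals.

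Libraries held between 11135713 and 50519825 estimated counts, and 3 counts corresponded to 0.0596 to 0.27 CPM (counts scaled to a common library size with TMM factors). Mouse *Ctnnb1*, which encodes endogenous β-catenin, averaged 58 ± 15.3 CPM (SD, n = 3) in *Cat-Tg* CD4+ and 59.4 ± 15.3 in WT CD4+ pre-tx libraries, and the human transgene was not analysed here. Libraries labelled WT pre-tx went against their labels. The summed level of 14 B cell genes averaged 15300 CPM in WT CD4+ and 13700 CPM in WT CD8+ pre-tx libraries, against 2720 and 1820 CPM in the matching *Cat-Tg* libraries, and the 12 T cell genes summed to 3180 and 2060 against 7780 and 9700 CPM. Libraries labelled WT CD8+ pre-tx held *Cd4* at a mean of 93.4 CPM and those labelled WT CD4+ pre-tx held *Cd8a* at 143 CPM, while in each *Cat-Tg* group and each post-tx group the other coreceptor averaged at most 6.5 CPM. *Ddx3y*, a gene of the Y chromosome, lay between 33.2 and 112 CPM in the 6 *Cat-Tg* pre-tx libraries and at or below 0.449 CPM in the other libraries. This Y-linked difference coincides with genotype pre-tx and, within *Cat-Tg*, with transfer. It cannot be told apart from either of them there, or from the interaction of genotype and transfer. Library names also form one series per genotype, so library series and genotype cannot be told apart. The WT CD8+ post-tx libraries were less alike than those of the other post-tx groups, with Spearman correlations of 0.839 to 0.902, and replicate 2 had the lowest TMM factor of them (0.581).

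Promoters of the members are shown because the study concerns β-catenin, which acts on genes through TCF/LEF proteins, and because several members moved together after transfer. RefSeq windows (GRCm38.p6, 250 bases before to 50 after a start) were held for *Pdcd1*, *Ctla4*, *Havcr2*, *Tigit*, *Btla*, *Cd274* and both starts of *Cd160*, and not for *Lag3*, *Cd28* or *Icos*. The letters searched on both strands were CTTTGAT or CTTTGAA (TCF/LEF), TGANTCA (AP-1), AGGTGTGA (T-box) and GGAAA (NFAT core). TCF/LEF letters were found in 2 of the 8 windows and in 8.65% of 32851 windows of the same 300 bases, AP-1 letters in 1 and in 7.81%, T-box letters in 0 and in 1.28%, and the NFAT core in 5 and in 61.3%. Capitals mark those letters below, and the bases run 5′ to 3′ on the strand of the gene. No binding was measured, so a match is a description of the letters only.
*Pdcd1*, chr1:94052554-94052803, minus strand: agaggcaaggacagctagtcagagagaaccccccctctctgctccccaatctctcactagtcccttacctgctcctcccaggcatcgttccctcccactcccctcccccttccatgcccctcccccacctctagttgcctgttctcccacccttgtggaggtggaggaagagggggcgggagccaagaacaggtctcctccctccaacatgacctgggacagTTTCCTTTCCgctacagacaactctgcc
*Ctla4*, chr1:60909040-60909069, plus strand, 30 bases after the start: acgtaccttggATCAAAGctgtctatataa
*Havcr2*, chr11:46454681-46454930, plus strand: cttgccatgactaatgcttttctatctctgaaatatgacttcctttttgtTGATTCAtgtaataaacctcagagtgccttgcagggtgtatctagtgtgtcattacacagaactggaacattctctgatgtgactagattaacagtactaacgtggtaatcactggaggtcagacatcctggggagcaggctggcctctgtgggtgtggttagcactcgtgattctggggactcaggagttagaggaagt
*Tigit*, chr16:43664185-43664434, minus strand: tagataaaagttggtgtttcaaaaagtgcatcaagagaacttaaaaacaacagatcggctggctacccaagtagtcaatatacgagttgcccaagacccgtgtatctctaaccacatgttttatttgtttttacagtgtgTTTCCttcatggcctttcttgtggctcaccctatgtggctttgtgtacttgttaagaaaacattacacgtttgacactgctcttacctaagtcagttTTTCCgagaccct
*Cd160*, inner start, chr3:96814522-96814771, minus strand: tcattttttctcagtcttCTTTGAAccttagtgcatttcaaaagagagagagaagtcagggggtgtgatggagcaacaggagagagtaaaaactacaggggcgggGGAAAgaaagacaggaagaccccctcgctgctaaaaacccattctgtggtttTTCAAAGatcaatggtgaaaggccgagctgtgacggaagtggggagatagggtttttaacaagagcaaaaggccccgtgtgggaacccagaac

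The *Ctla4* window held its TCF/LEF letters at positions 27 to 33 after the start, and the inner *Cd160* window held them at positions -232 to -226 and -93 to -87. The transcript model Cd160-201 carried nearly all *Cd160* in every group. Its share of the gene's TPM (transcript abundance per length) ran from 91.1% in WT CD8+ pre-tx to 98.9% in *Cat-Tg* CD8+ post-tx. Which start this model uses was not read here. In the genome, *Cd28* (chr1:60716800-60773359), *Ctla4* (chr1:60887000-60915832) and *Icos* (chr1:60977927-61000320) are neighbours on the plus strand, and *Pdcd1* (chr1:94038305-94052553, minus strand) lies further along the same chromosome.

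The mean summed level of the members was higher post-tx than pre-tx in each genotype and cell type, with overlap between libraries in *Cat-Tg* CD4+ (531 to 705 CPM pre-tx and 629 to 1130 CPM post-tx). Summed over the 10 genes, the level averaged 167 ± 27.7 CPM in WT CD4+, 298 ± 118 in WT CD8+, 613 ± 87.7 in *Cat-Tg* CD4+ and 247 ± 7.41 in *Cat-Tg* CD8+ pre-tx libraries (SD, n = 3 each). On day 7 the sums averaged 1690 ± 179, 2340 ± 631, 951 ± 280 and 1820 ± 66.2 CPM in the same order. *Pdcd1* had the highest mean TPM of the 10 genes in each post-tx group, at 446 ± 57 in WT CD4+, 482 ± 160 in WT CD8+, 193 ± 41.8 in *Cat-Tg* CD4+ and 450 ± 52.5 in *Cat-Tg* CD8+. It was also first in *Cat-Tg* CD4+ pre-tx libraries, with 49 ± 13.5 TPM, but ranked below *Cd160* and *Btla* in both WT pre-tx groups. *Cd160* was second to *Pdcd1* in both CD8+ post-tx groups (156 ± 80.1 TPM in WT and 252 ± 48.2 in *Cat-Tg*), and *Tigit* was second in both CD4+ post-tx groups (339 ± 35 TPM in WT and 124 ± 51.8 in *Cat-Tg*). In bulk libraries, fewer cells of a type and less RNA per cell cannot be told apart.

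**Figure D1:**
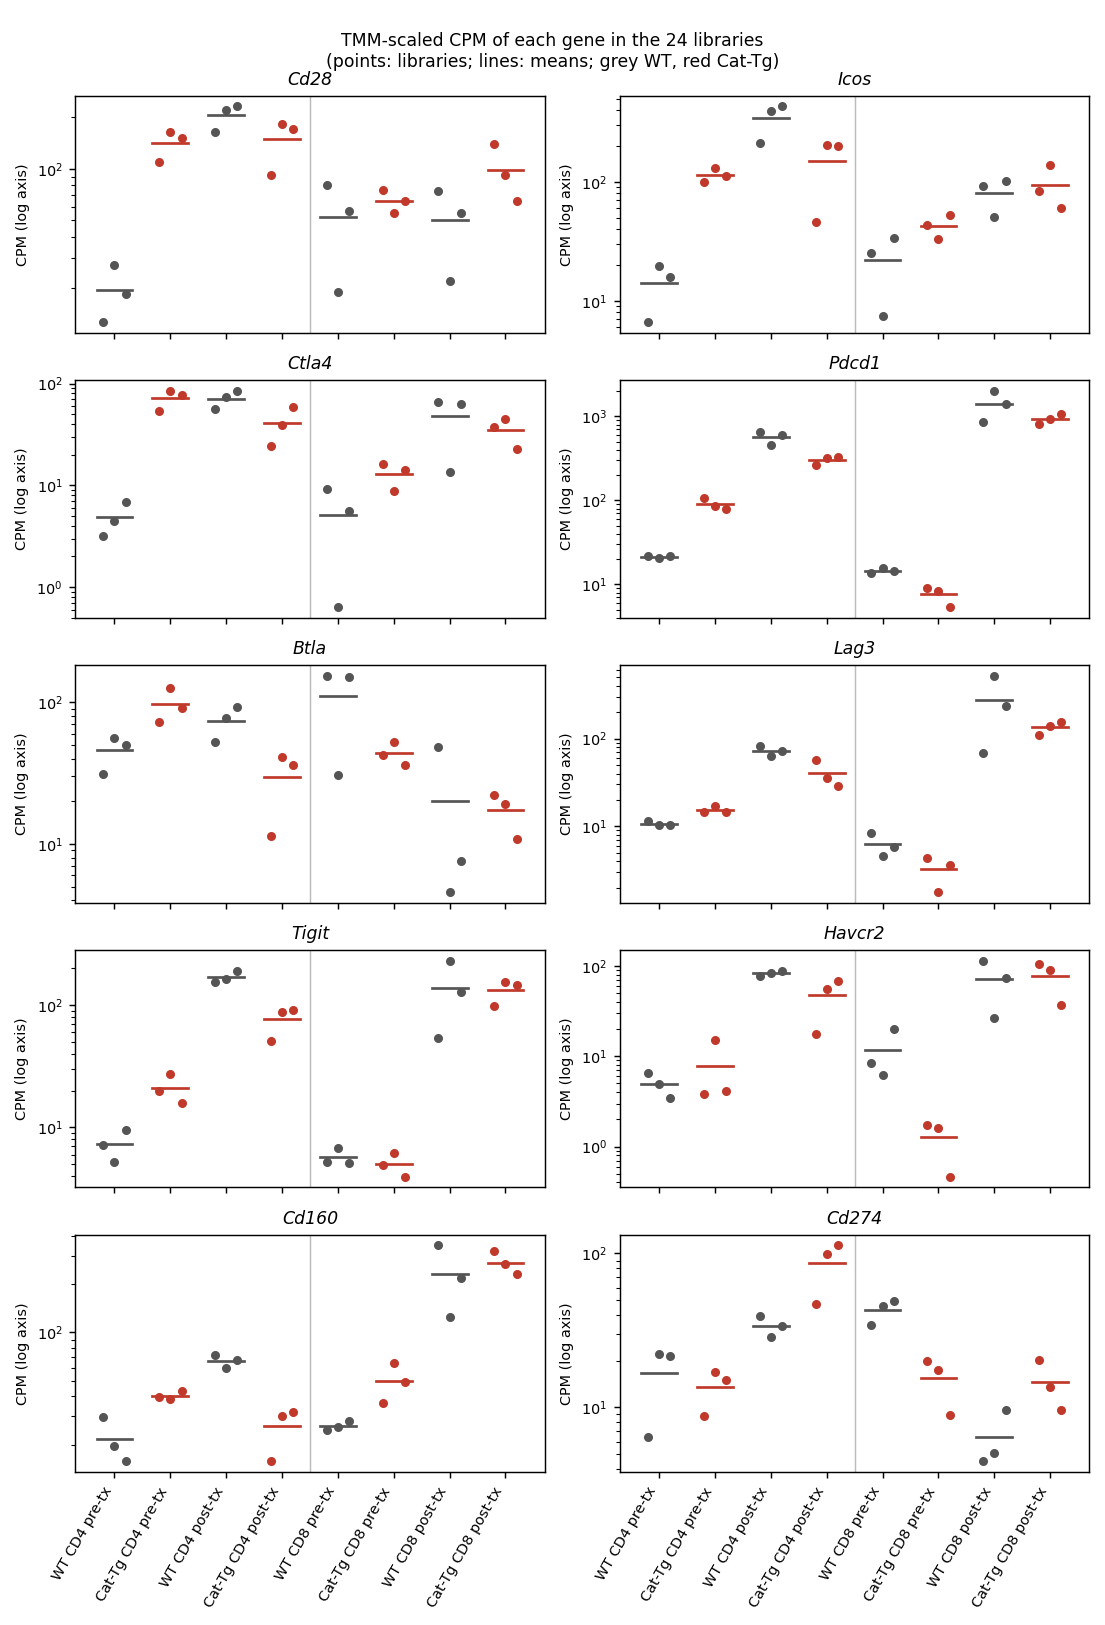
CPM scaled by TMM (log axis) of each of the 10 genes in the 24 libraries, by group; points are libraries, horizontal lines the means of 3, grey WT and red *Cat-Tg*. *Pdcd1* lies between 863 and 2000 CPM in WT CD8+ post-tx libraries and between 13.6 and 15.5 CPM in those labelled WT CD8+ pre-tx.

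For *Pdcd1*, the order of the group means was WT CD8+, *Cat-Tg* CD8+, WT CD4+ and *Cat-Tg* CD4+ post-tx, then *Cat-Tg* CD4+, WT CD4+, WT CD8+ and *Cat-Tg* CD8+ pre-tx. Among neighbours in that order, the libraries overlapped only between the WT and *Cat-Tg* CD8+ post-tx groups (863 to 2000 and 816 to 1080 CPM). *Lag3* had the same order, and its neighbours likewise overlapped only between those groups (68.4 to 516 and 109 to 155 CPM), although the WT CD8+ post-tx range also reached into that of WT CD4+ post-tx libraries (62.6 to 82.7 CPM). *Btla* had another order, with its highest mean in libraries labelled WT CD8+ pre-tx (111 ± 69.9 CPM) and its lowest in *Cat-Tg* CD8+ post-tx libraries (17.4 ± 5.93 CPM), and each pair of neighbours overlapped. *Cd274* was highest in *Cat-Tg* CD4+ post-tx libraries (85.9 ± 34.7 CPM) and lowest in WT CD8+ post-tx libraries (6.38 ± 2.8 CPM).

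Changes with transfer were tested within each genotype and cell type by edgeR's quasi-likelihood test, and a gene was called at a Benjamini-Hochberg adjusted p of at most 0.05 over all genes with at least a 2-fold change. In WT CD4+ libraries 8 of the 10 genes rose, where 13.1% of all tested genes were called higher and 9.05% lower. The median log2 fold change of the members was 3.77, beside -0.14 over all genes. In WT CD8+ libraries 7 rose and 2 fell, where 13.2% of all genes were called higher and 10.4% lower. In *Cat-Tg* CD8+ libraries 5 rose and 0 fell, where 8.73% were called higher and 5.25% lower. In *Cat-Tg* CD4+ libraries 5 rose and 2 fell, where 13.2% were called higher and 27.7% lower. *Pdcd1*, *Lag3*, *Tigit* and *Havcr2* were called higher in each of the 4 settings.

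The rise of *Pdcd1*, the PD-1 receptor gene, was the widest in CD8+ cells. *Cat-Tg* CD8+ libraries went from 9, 8.42 and 5.35 CPM pre-tx to 816, 927 and 1080 CPM post-tx, and WT CD8+ libraries from 13.6, 15.5 and 14.3 to 863, 2000 and 1400 CPM. All post-tx libraries lay far above all pre-tx libraries, and 49.2% of all genes in *Cat-Tg* and 34.3% in WT likewise had groups that did not overlap. The log2 fold changes were 6.97 ± 0.458 (SE, edgeR adjusted p = 7.08e-07) in *Cat-Tg* and 6.75 ± 0.453 (edgeR adjusted p = 3.83e-07) in WT. In WT CD4+ libraries *Pdcd1* rose from 21.6, 20.6 and 21.8 CPM to 648, 458 and 608 CPM, a log2 fold change of 4.88 ± 0.243 (edgeR adjusted p = 4.19e-09). *Cat-Tg* CD4+ libraries started higher, at 108, 85.1 and 78.9 CPM, and reached 267, 321 and 330 CPM, with a log2 fold change of 1.43 ± 0.21 (edgeR adjusted p = 0.000117). The groups did not overlap in either genotype, as held for 43.9% of all genes in WT and 56.8% in *Cat-Tg* CD4+.

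*Lag3*, a receptor for MHC class II, and *Tigit*, a receptor for the poliovirus receptor family, followed the same direction in each setting. *Lag3* in *Cat-Tg* CD8+ libraries rose from 4.32, 1.8 and 3.67 CPM to 109, 140 and 155 CPM (log2 fold change 5.38 ± 0.682, edgeR adjusted p = 0.000167). In WT CD8+ libraries it rose from 8.53, 4.67 and 5.88 CPM to 68.4, 516 and 235 CPM, a spread wider than in *Cat-Tg*, with a log2 fold change of 5.54 ± 0.684 (edgeR adjusted p = 5.06e-05). The *Lag3* log2 fold change was 2.89 ± 0.323 in WT CD4+ and 1.08 ± 0.304 in *Cat-Tg* CD4+ libraries, the latter falling to 0.72 without *Cat-Tg* CD4+ post-tx replicate 1, below the 2-fold limit. *Tigit* rose by 4.72 ± 0.544 in WT CD8+, 4.74 ± 0.545 in *Cat-Tg* CD8+, 4.66 ± 0.345 in WT CD4+ and 1.53 ± 0.302 in *Cat-Tg* CD4+ on the log2 scale. *Tigit* CPM were 98.1, 154 and 147 in *Cat-Tg* CD8+ post-tx libraries and 4.97, 6.16 and 3.96 pre-tx, and the groups did not overlap, as held for 49.2% of all genes.

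*Havcr2*, which encodes TIM-3, was nearly silent in *Cat-Tg* CD8+ pre-tx libraries, at 1.74, 1.62 and 0.464 CPM, and reached 106, 91.5 and 36.9 CPM post-tx. Its log2 fold change there was 5.94 ± 0.795 (edgeR adjusted p = 0.000266). In libraries labelled WT CD8+ pre-tx it already stood at 8.5, 6.28 and 20.3 CPM, and post-tx at 115, 26.6 and 73.5 CPM, a log2 fold change of 2.73 ± 0.678 (edgeR adjusted p = 0.0085). In CD4+ libraries the log2 fold changes of *Havcr2* were 4.2 ± 0.58 in WT and 2.28 ± 0.533 in *Cat-Tg*. *Cd160*, a GPI-anchored receptor that shares the ligand HVEM with BTLA, rose in *Cat-Tg* CD8+ libraries from 36.1, 64.3 and 49.1 CPM to 321, 265 and 230 CPM (log2 fold change 2.46 ± 0.414, edgeR adjusted p = 0.00147) and in WT CD8+ libraries from 24.8, 25.6 and 27.9 to 349, 124 and 219 CPM (3.27 ± 0.428, edgeR adjusted p = 7.65e-05). In WT CD4+ libraries *Cd160* rose by 1.76 ± 0.322. In *Cat-Tg* CD4+ libraries its log2 fold change was -0.97 ± 0.316 (edgeR adjusted p = 0.021), short of 2-fold, and it passed at -1.10 without *Cat-Tg* CD4+ post-tx replicate 2, -1.11 without replicate 3, and -1.02 without pre-tx replicate 1 and also without pre-tx replicate 2.

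Costimulatory receptors and *Ctla4* rose strongly in WT CD4+ libraries. *Icos* went from 6.57, 19.5 and 15.9 CPM to 213, 395 and 431 CPM (log2 fold change 4.76 ± 0.534, edgeR adjusted p = 1.38e-05), and *Cd28* from 12.6, 27.3 and 18.6 to 165, 222 and 232 CPM (3.53 ± 0.347, edgeR adjusted p = 3.65e-06). *Ctla4* rose from 3.2, 4.46 and 6.9 CPM to 56.2, 73.3 and 84.4 CPM (4.01 ± 0.392, edgeR adjusted p = 3.58e-06). None of these groups overlapped, as held for 43.9% of all genes. In *Cat-Tg* CD4+ libraries *Cd28* and *Icos* were not called, at means of 142 and 149 CPM and of 114 and 150 CPM pre-tx and post-tx. *Ctla4* fell there by 1.15 ± 0.348 on the log2 scale (edgeR adjusted p = 0.0146), with overlapping groups of 53.7, 84.4 and 76.8 CPM pre-tx and 24.3, 38.9 and 58.9 CPM post-tx, and without *Cat-Tg* CD4+ post-tx replicate 1 the change was -0.91, short of 2-fold.

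In WT CD8+ libraries *Ctla4* rose by 3.30 ± 0.815 (edgeR adjusted p = 0.00827) and *Icos* by 1.99 ± 0.543 (edgeR adjusted p = 0.0147), the latter no longer called without WT CD8+ post-tx replicate 3 (1.56, edgeR adjusted p = 0.08). In *Cat-Tg* CD8+ libraries the *Ctla4* and *Icos* changes of 1.43 ± 0.76 and 1.14 ± 0.53 were not called (edgeR adjusted p = 0.192 and 0.143), although neither gene's groups overlapped, as held for 49.2% of all genes. *Cd28* did not pass the test in CD8+ cells of either genotype, with means between 50.3 and 98.5 CPM in the 4 groups.

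*Btla*, whose product pairs with HVEM, fell in both *Cat-Tg* CD4+ and WT CD8+ libraries, and *Cd274* fell in WT CD8+ libraries. *Btla* fell by 2.04 ± 0.408 in *Cat-Tg* CD4+ libraries (edgeR adjusted p = 0.00129), from 72.7, 126 and 91.5 CPM to 11.4, 40.9 and 36.3 CPM, with no overlap. In WT CD8+ libraries it fell by 2.37 ± 0.783 (edgeR adjusted p = 0.0383), from 153, 30.5 and 150 CPM to 48.3, 4.59 and 7.64 CPM, with overlap. That call was lost without WT CD8+ post-tx replicate 2 (-2.08) or replicate 3 (-2.18) and without pre-tx replicate 1 (-2.05) or replicate 3 (-2.12), and the value was -4.28 without post-tx replicate 1. *Cd274* fell in WT CD8+ libraries by 2.61 ± 0.544 (edgeR adjusted p = 0.00267), from 34.4, 45.5 and 49 CPM to 4.46, 5.08 and 9.6 CPM. It rose in *Cat-Tg* CD4+ libraries by 2.33 ± 0.456 (edgeR adjusted p = 0.00111), from 8.74, 17 and 15 CPM to 46.7, 98.6 and 113 CPM. The 12 myeloid genes, cells known to express PD-L1, summed to 1930 ± 422 CPM pre-tx and 4390 ± 530 CPM post-tx in *Cat-Tg* CD4+ libraries, and their part in the *Cd274* result was not tested. Beside the falls, the genes of B cells, which are known to express *Btla*, were lower post-tx in 14 of 14 cases in WT CD8+ (13700 to 623 CPM in sum) and in 12 of 14 in *Cat-Tg* CD4+ libraries (2720 to 2280 CPM, of which *Ighm*, not called, held means of 2050 and 2180 CPM), and the myeloid genes in 7 of 12 in WT CD8+ libraries (2800 to 856 CPM). The part of these lists in the falls was not tested.

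**Figure D2:**
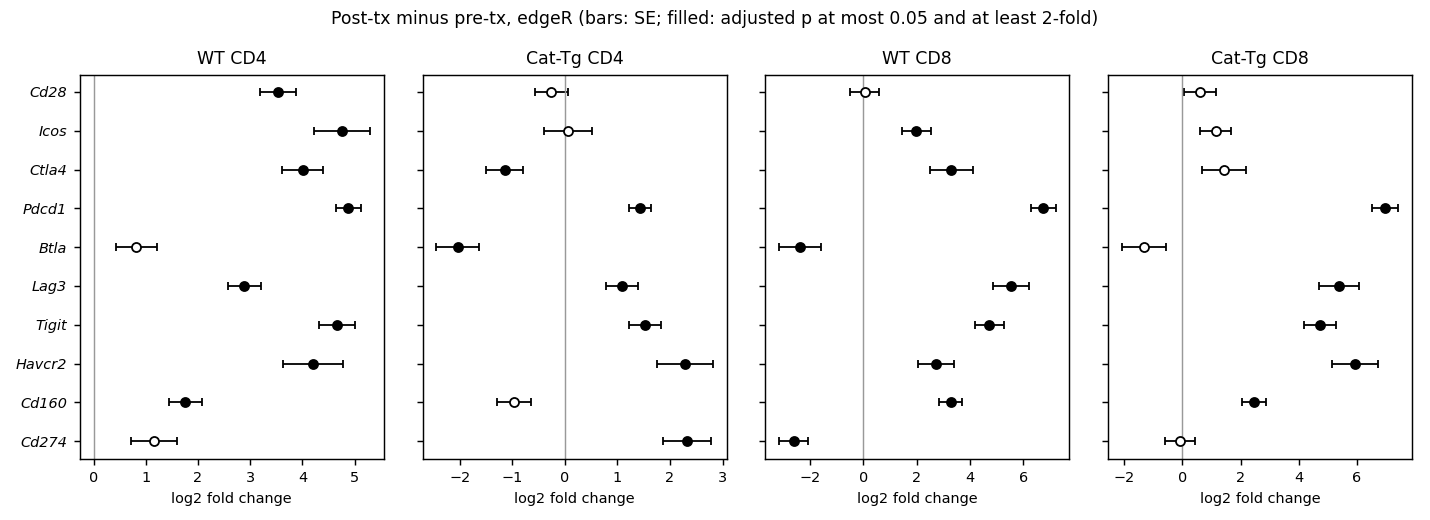
Log2 fold change (x axis, own range in each panel) of each gene, post-tx minus pre-tx, in 4 settings, with bars of 1 SE; filled points passed the edgeR test with at least a 2-fold change. *Pdcd1*, *Lag3*, *Tigit* and *Havcr2* are filled and to the right of 0 in each panel, and the *Cat-Tg* CD4+ panel has the smallest *Pdcd1* value, 1.43.

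Because the B cell share differed between the WT pre-tx libraries and the others, libraries were also scaled by the summed counts of the 12 T cell genes in place of TMM, an alternative chosen after seeing the data. On this scale the median log2 fold change of all genes moved from -0.23 to -2.78 in WT CD8+ and from -0.14 to -1.41 in WT CD4+ post-tx minus pre-tx. In WT CD8+ libraries 3 members then rose, namely *Pdcd1* (4.04), *Lag3* (2.68) and *Tigit* (1.93), and 3 fell, namely *Btla* (-4.65), *Cd274* (-5.22) and *Cd28* (-2.39), where 69.7% of all genes were called in either direction. *Ctla4* (0.87), *Havcr2* (0.31) and *Cd160* (0.83) were no longer called there, and *Icos* reversed to -0.53. In WT CD4+ libraries 7 members rose on the T cell scale, where 45.6% of all genes were called in either direction, *Cd160* (0.49) lost its call and the uncalled *Cd274* went from 1.15 to -0.16. The *Cat-Tg* CD8+ values hardly moved, with *Pdcd1* at 6.75, and the median of all genes there went from -0.26 to -0.45. In *Cat-Tg* CD4+ libraries 6 members were called on the T cell scale, where 43.6% of all genes were called in either direction. *Ctla4* (-0.46) lost its call there, and the median of all genes went from -0.38 to 0.27.

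Before transfer, *Cat-Tg* CD4+ libraries had higher levels of 7 members than WT CD4+ libraries, where 12.3% of all genes were called higher and 5.9% lower. The median log2 fold change was 1.53 for the members and 0.03 for all genes. The study compared expression between the genotypes both before and after transplantation. By flow cytometry, which reads protein and not RNA, it reported more PD-1 and unchanged CTLA-4 on untransplanted *Cat-Tg* CD4+ cells. For CD8+ cells it reported a trend to more PD-1 and unchanged CTLA-4. *Ctla4* stood at 53.7, 84.4 and 76.8 CPM in *Cat-Tg* and at 3.2, 4.46 and 6.9 CPM in WT, a log2 fold change of 4.12 ± 0.394 (edgeR adjusted p = 1.09e-05). *Icos* was higher by 3.26 ± 0.499 (edgeR adjusted p = 0.000368) and *Cd28* by 3.09 ± 0.341 (edgeR adjusted p = 3.28e-05). The 3 neighbours on chromosome 1 thus had the widest differences among the members on the TMM scale, though not with the T cell gene scaling given below. *Pdcd1* was higher by 2.32 ± 0.217 (edgeR adjusted p = 9.31e-06), with 108, 85.1 and 78.9 CPM against 21.6, 20.6 and 21.8 CPM, and *Tigit* by 1.75 ± 0.308 (edgeR adjusted p = 0.000948). The groups of each of these 5 genes did not overlap, as held for 38.1% of all genes.

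*Btla* (1.31 ± 0.4, edgeR adjusted p = 0.0284) and *Cd160* (1.13 ± 0.317, edgeR adjusted p = 0.0182) were also called higher in *Cat-Tg* CD4+ pre-tx libraries, but these calls depended on single libraries. *Btla* lost its call without *Cat-Tg* replicate 2 (1.08) or replicate 3 (1.34) and without WT replicate 1 (0.84) or replicate 3 (1.16). *Cd160* lost it without *Cat-Tg* replicate 3 (1.07) and without WT replicate 2 (1.07) or replicate 3 (0.72). *Lag3*, *Havcr2* and *Cd274* did not pass the test, with means of 15.4, 7.72 and 13.6 CPM in *Cat-Tg* against 10.7, 4.99 and 16.7 CPM in WT.

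Marker lists moved with this difference. The B cell genes were lower in 14 of 14 cases, the T cell genes higher in 8 of 12 and the regulatory T cell genes in 4 of 6. The level of *Foxp3*, the transcription factor of regulatory T cells, which are known to carry CTLA-4 and ICOS, was 77.4 ± 5.39 CPM in *Cat-Tg* CD4+ pre-tx libraries against 18.8 ± 6.68 CPM in WT. Scaled by the T cell genes, the median of all genes moved to -1.52, and *Ctla4* (2.53), *Icos* (1.71) and *Cd28* (1.56) were still called higher, while *Cd274* went from -0.07 to -1.64 and was called lower, where 45.1% of all genes were called. *Pdcd1* was then 0.80, short of 2-fold, *Tigit* 0.17, *Btla* -0.24 and *Cd160* -0.38, the last 2 reversed in sign. The part of regulatory T cells, and that of the Y-linked difference, was not tested.

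**Figure D3:**
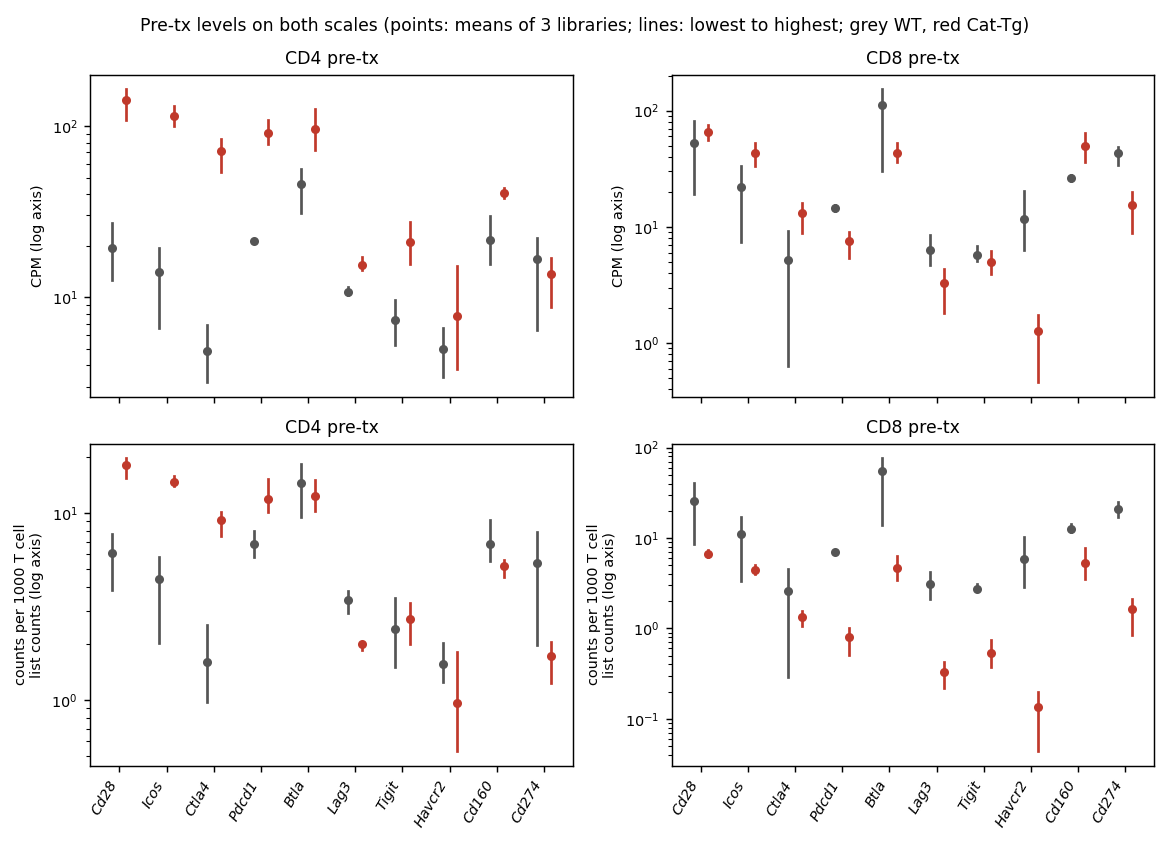
Pre-tx levels of the 10 genes (log axes) in CD4+ (left) and CD8+ (right), as CPM (top) and as counts per 1000 counts of the 12 T cell genes (bottom); points are means of 3 libraries, lines run from the lowest to the highest library, grey WT and red *Cat-Tg*. *Ctla4* in CD4+ is 71.6 against 4.85 CPM and 9.13 against 1.59 per 1000 T cell counts, whereas *Pdcd1* in CD8+ is 0.8 in *Cat-Tg* and 7.02 in WT on the lower scale.

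After transfer the CD4+ difference had the opposite sign. *Cat-Tg* CD4+ libraries had lower levels of 5 members and higher levels of 0, where 6.41% of all genes were called lower and 3.61% higher. The median was -1.09 for the members and -0.19 for all genes. *Cd160* fell from 72.5, 60.3 and 66.9 CPM in WT to 15.7, 30.2 and 31.9 CPM in *Cat-Tg* (log2 fold change -1.59 ± 0.32, edgeR adjusted p = 0.0055). *Tigit* stood at 155, 164 and 189 CPM in WT and at 50.4, 87.4 and 91.3 CPM in *Cat-Tg* (-1.38 ± 0.299, edgeR adjusted p = 0.00851). *Pdcd1* was lower by 1.13 ± 0.208 (edgeR adjusted p = 0.00398), with 648, 458 and 608 CPM against 267, 321 and 330 CPM. None of these groups overlapped, as held for 28.5% of all genes.

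*Btla* (-1.55 ± 0.402, edgeR adjusted p = 0.0229) and *Lag3* (-1.05 ± 0.302, edgeR adjusted p = 0.0372) were the other members called lower. *Btla* lost its call without *Cat-Tg* replicate 3 (-1.69) and without WT replicate 2 (-1.48) or replicate 3 (-1.41). *Lag3* lost it without *Cat-Tg* replicate 2 (-0.96) or replicate 3 (-0.84) and without each WT library in turn (-0.94, -1.12 and -1.10 for replicates 1, 2 and 3). *Icos* (-1.44, edgeR adjusted p = 0.0593), *Ctla4* (-1.04, 0.0681) and *Havcr2* (-1.06, 0.212) pointed down without passing, *Icos* passing at -1.69 without WT replicate 1. *Cd274* pointed up, at 46.7, 98.6 and 113 CPM in *Cat-Tg* against 39.5, 28.5 and 33.7 CPM in WT (1.10, edgeR adjusted p = 0.126).

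Marker lists also differed between these post-tx CD4+ libraries. The 12 myeloid genes summed to 4390 CPM in *Cat-Tg* against 1230 CPM in WT, 8 of the 12 being called higher, and the 6 red cell genes to 7550 and 417 CPM, 6 of 6 called higher. The B cell genes summed to 2280 and 768 CPM, 4 of the 14 being called higher and 2 lower. The follicular helper T cell genes, a cell type known to carry PD-1, BTLA, TIGIT and ICOS, summed to 66.1 and 165 CPM, 2 of the 4 being called lower, and the part of these lists in the results was not tested. *Foxp3* was also higher, at 57.5 ± 19.7 against 15.2 ± 4.48 CPM, while the 12 T cell genes had 0 calls. Scaled by the T cell genes, 0 members were called lower, with *Cd160* at -1.16 (edgeR adjusted p = 0.0529), *Btla* at -1.12, *Tigit* at -0.97, *Pdcd1* at -0.71 and *Lag3* at -0.69, and *Cd274* was called higher at 1.56 (edgeR adjusted p = 0.0474), where 9.02% of all genes were called. The direction of these 5 genes was the same on both scales, while their calls rested on the TMM scale.

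In CD8+ pre-tx libraries 1 member, *Havcr2*, was called lower in *Cat-Tg*, where 4.48% of all genes were called lower and 4.49% higher. It stood at 1.74, 1.62 and 0.464 CPM in *Cat-Tg* against 8.5, 6.28 and 20.3 CPM in WT, a log2 fold change of -3.17 ± 0.706 (edgeR adjusted p = 0.0111), and without *Cat-Tg* replicate 3 it was -2.82 (edgeR adjusted p = 0.0544). *Cd274* (15.5 ± 5.85 against 42.9 ± 7.63 CPM, log2 fold change -1.43) and *Btla* (43.5 ± 8.18 against 111 ± 69.9 CPM, -1.35) did not pass, at edgeR adjusted p of 0.101 and 0.311. *Pdcd1* lay between 5.35 and 9 CPM in *Cat-Tg* and between 13.6 and 15.5 CPM in WT, with no overlap, as held for 33.4% of all genes, and was not called (edgeR adjusted p = 0.137).

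Calls in this CD8+ pre-tx comparison changed with the scale. With T cell gene scaling the median of all genes moved from -0.07 to -2.30, 61.2% of all genes were called, and 8 members were called lower. They were *Havcr2* (-5.41), *Cd274* (-3.67), *Btla* (-3.59), *Lag3* (-3.24), *Pdcd1* (-3.14), *Tigit* (-2.37), *Cd28* (-1.94) and *Cd160* (-1.26). On the TMM scale *Cd28* (0.32) and *Cd160* (0.96) had pointed up. The uncalled *Ctla4* went from 1.33 to -0.95 and *Icos* from 0.97 to -1.32. B cells and myeloid cells are known to express *Btla* and *Cd274*. The B cell list was lower in *Cat-Tg* by a wide margin (1820 against 13700 CPM), and its part in these values was not tested.

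**Figure D4:**
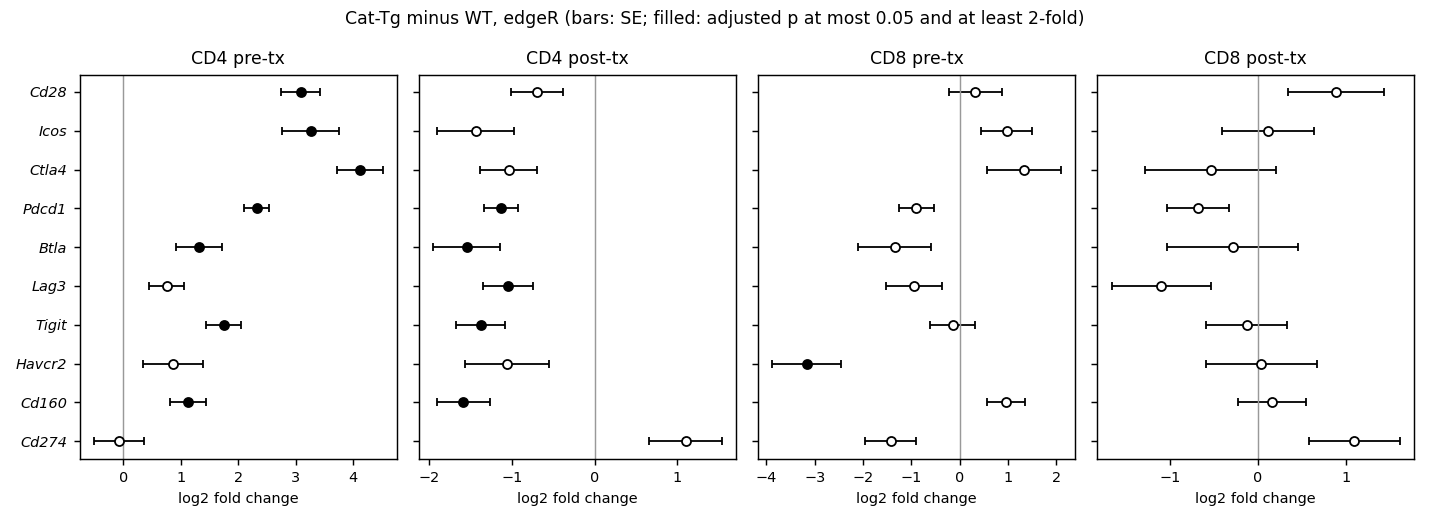
Log2 fold change (x axis, own range in each panel) of each gene, *Cat-Tg* minus WT, in 4 settings, with bars of 1 SE; filled points passed the edgeR test with at least a 2-fold change. CD4+ points lie mostly right of 0 pre-tx, with *Ctla4* at 4.12, and mostly left of 0 post-tx, with *Cd160* at -1.59.

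In CD8+ post-tx libraries 0 of the 10 members were called between *Cat-Tg* and WT by edgeR, where 1.67% of all genes were called in either direction. The count was also 0 at an unadjusted p under 0.05, which 19.1% of all genes had, and it was 0 by DESeq2 and by limma-voom. *Pdcd1* averaged 939 ± 130 CPM in *Cat-Tg* and 1420 ± 569 in WT, and *Lag3* 134 ± 23.2 and 273 ± 226 CPM. WT CD8+ post-tx replicate 2 had the highest *Pdcd1*, *Lag3* and *Tigit* (2000, 516 and 231 CPM) and the lowest *Btla*, *Cd28*, *Icos*, *Ctla4* and *Havcr2* (4.59, 21.9, 50.2, 13.6 and 26.6 CPM) of its group. The log2 fold changes of *Lag3* (-1.10 ± 0.569) and *Cd274* (1.10 ± 0.52) did not pass, at edgeR adjusted p of 0.304 and 0.265. The *Lag3* value was -0.16 without WT replicate 2, and the *Cd274* value 1.69 without WT replicate 3.

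An interaction term asked whether the genotype difference changed with transfer. In CD4+ libraries 8 members were called lower, where 14% of all genes were called lower and 7.19% higher, and the median was -3 for the members and -0.55 for all genes. *Ctla4* had the largest interaction of the members, -5.16 ± 0.519 (edgeR adjusted p = 1.32e-05), followed by *Icos* (-4.70 ± 0.678, edgeR adjusted p = 0.000316), *Cd28* (-3.80 ± 0.459, edgeR adjusted p = 7.57e-05) and *Pdcd1* (-3.45 ± 0.3, edgeR adjusted p = 3.71e-06). *Tigit* (-3.13), *Btla* (-2.86), *Cd160* (-2.73) and *Lag3* (-1.81) were also called, the last losing its call without WT CD4+ pre-tx replicate 1 (-1.41) or replicate 3 (-1.35). *Havcr2* (-1.92) and *Cd274* (1.17) were not called, but passed at -2.26 without *Cat-Tg* CD4+ pre-tx replicate 1 and at 2 without WT CD4+ pre-tx replicate 1. The genotype, transfer and interaction tests share libraries, so their counts are not independent of each other. With T cell gene scaling the median of all genes moved to 1.37, and *Ctla4* (-3.18), *Icos* (-2.74), *Cd28* (-1.86) and *Pdcd1* (-1.5) were still called lower and *Cd274* was called higher (3.20), where 38.8% of all genes were called, whereas *Tigit* (-1.14), *Btla* (-0.87) and *Cd160* (-0.78) lost their calls and *Lag3* (0.09) and *Havcr2* (0.07) reversed.

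In CD8+ libraries the interaction was called for *Havcr2* (3.21 ± 0.934, edgeR adjusted p = 0.0383) and *Cd274* (2.53 ± 0.736, edgeR adjusted p = 0.0381), both higher, where 5.93% of all genes were called higher and 4.77% lower. Neither call was firm. *Havcr2* lost it without *Cat-Tg* CD8+ post-tx replicate 1 (2.92) or replicate 2 (3.10), *Cat-Tg* pre-tx replicate 3 (2.97), WT post-tx replicate 3 (3.43) and WT pre-tx replicate 1 (3.38) or replicate 3 (2.55). *Cd274* lost it without *Cat-Tg* post-tx replicate 1 (2.20) or replicate 2 (2.60), *Cat-Tg* pre-tx replicate 3 (2.45) and each WT pre-tx library (2.65, 2.49 and 2.42 for replicates 1, 2 and 3). *Btla*, at 1.06 and uncalled, passed at 2.92 without WT CD8+ post-tx replicate 1. With T cell gene scaling 6 members were called higher, where 41.7% of all genes were called in either direction, the median of all genes moved from -0.20 to 2.17, and the uncalled *Ctla4* went from -1.87 to 0.40.

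CD8+ and CD4+ libraries were compared within each group of mice. In *Cat-Tg* pre-tx libraries 5 members were lower in CD8+, where 1.16% of all genes were called lower and 0.367% higher. *Pdcd1* differed most, at 9, 8.42 and 5.35 CPM in CD8+ against 108, 85.1 and 78.9 CPM in CD4+ (log2 fold change -3.58 ± 0.311, edgeR adjusted p = 1.19e-07). *Tigit* (-2.06 ± 0.415, edgeR adjusted p = 0.00592) and *Lag3* (-2.24 ± 0.486, edgeR adjusted p = 0.0123) were next by p. *Havcr2* (-2.60, edgeR adjusted p = 0.0494) and *Ctla4* (-2.45, edgeR adjusted p = 0.0498) lay at the threshold. Leaving out 1 library brought the count down to between 1 and 4. *Pdcd1* stayed called each time, whereas *Ctla4* lost its call without any of the 6 libraries (-2.23 to -2.64), *Havcr2* without CD4+ replicate 2 (-1.70) or any of the CD8+ libraries (-2.21 to -2.91), *Lag3* without CD4+ replicate 1 (-2.26) or 2 (-2.18) or CD8+ replicate 2 (-1.93) or 3 (-2.36), and *Tigit* without CD8+ replicate 3 (-1.95). The regulatory T cell genes were lower in CD8+ in 4 of 6 cases (22.9 against 224 CPM in sum) and the myeloid genes in 6 of 12, and their part in these differences was not tested.

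After transfer the sign for *Pdcd1* and *Lag3* was the other way. In *Cat-Tg* post-tx libraries *Cd160* (3.39 ± 0.381, edgeR adjusted p = 3.21e-06), *Lag3* (1.73 ± 0.469, edgeR adjusted p = 0.0265) and *Pdcd1* (1.62 ± 0.286, edgeR adjusted p = 0.000633) were higher in CD8+ and *Cd274* was lower (-2.56 ± 0.495, edgeR adjusted p = 0.0016), where 1.34% of all genes were called higher and 4.5% lower. *Cd160* stood at 321, 265 and 230 CPM in CD8+ against 15.7, 30.2 and 31.9 CPM in CD4+. *Lag3* lost its call without CD4+ replicate 2 (1.64) or 3 (1.53) and without CD8+ replicate 2 (1.90) or 3 (1.67). With T cell gene scaling *Cd160* (2.56) and *Cd274* (-3.39) were still called, and *Lag3* (0.95) and *Pdcd1* (0.80) were not, where 11.1% of all genes were called.

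In WT post-tx libraries *Cd160* (1.79 ± 0.357, edgeR adjusted p = 0.00133), *Lag3* (1.91 ± 0.471, edgeR adjusted p = 0.00757) and *Pdcd1* (1.32 ± 0.284, edgeR adjusted p = 0.0027) were higher in CD8+, where 5.71% of all genes were called higher. *Cd274* (-2.40 ± 0.495, edgeR adjusted p = 0.00177), *Icos* (-2.09 ± 0.538, edgeR adjusted p = 0.0106) and *Cd28* (-2.04 ± 0.47, edgeR adjusted p = 0.00471) were lower, where 7.09% were called lower. Without WT CD8+ post-tx replicate 2 *Lag3* was 1.20, *Icos* -1.64 and *Cd28* -1.47, and these 3 lost their calls. *Btla*, at -1.87 and uncalled, passed at -3.43 without WT CD8+ replicate 1. With T cell gene scaling *Cd160* (1.25), *Lag3* (0.96) and *Pdcd1* (0.52) were not called and 5 members were lower, where 17.1% of all genes were called in either direction.

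Between libraries labelled WT CD8+ and WT CD4+ pre-tx no member was called by edgeR, where 7 of 19092 genes were called (0.0367%). At an unadjusted p under 0.05, which 14.1% of all genes had, there were 2 members, *Cd28* (1.42 ± 0.463) and *Cd274* (1.36 ± 0.477), and DESeq2 called 1, *Cd28*, while limma-voom called 0. Both kinds of library held both coreceptors, as given above, so a CD8+ to CD4+ difference was not measured there in the way it was in the other groups.

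Other genes of these pathways were read from lists by role, to be set beside the shares of all genes called in the same comparisons (12.3% higher and 5.9% lower in CD4+ pre-tx, 3.61% and 6.41% in CD4+ post-tx, and 4.49% and 4.48% in CD8+ pre-tx). Of 12 ligand genes, 2 were higher and 2 lower in *Cat-Tg* than in WT CD4+ pre-tx libraries. *Icosl*, the ICOS ligand, which B cells express, was lower by 3.53 (9.04 against 122 CPM, edgeR adjusted p = 8.12e-06), *Ceacam1*, a proposed TIM-3 ligand, was lower by 2.49, and *Hmgb1* was higher by 2.13. Of 9 other receptors tested, 4 were higher and 1 lower there, led by *Cd200r1* (3.71), *Cd226* (3.33), the activating counterpart of TIGIT, and *Cd96* (2.79). Values of these lists, and of the signalling and transcription factor lists below, were read on the TMM scale only. The 12 T cell genes summed to 3180 CPM in WT and 7780 CPM in *Cat-Tg* CD4+ pre-tx libraries. The part of that difference in the list values was not tested. After transfer, 1 ligand was higher, *Cd86* (1.73), and 1 was lower, *Fgl1* (-4.08), a ligand of LAG-3, while 2 other receptors were higher, *Cd244a* (2.01) and *Lair1* (1.38). In CD8+ libraries the ligands had 0 higher and 2 lower pre-tx, *Icosl* (-5.06) and *Ceacam1* (-4.08), and 0 calls post-tx.

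Among 17 signalling genes, 5 were higher and 4 lower in *Cat-Tg* CD4+ pre-tx libraries. *Sh2d1a*, which encodes the adaptor SAP, was higher by 3.59 and *Themis* by 3.09, and *Pik3ap1*, the B cell adaptor BCAP, was lower by 2.71. Post-tx there were 0 higher and 2 lower, *Fyn* (-1.19) and *Sh2d1a* (-1.17). Of 15 transcription factors known to act on these receptors, 6 were higher and 2 lower pre-tx in CD4+, with *Foxp3* (2.28), *Id2* (2.14) and *Eomes* (-2.12) the widest, and 1 was higher and 3 lower post-tx, *Foxp3* (1.68), *Nr4a2* (-2.92), *Tox* (-1.31) and *Tcf7* (-1.15). *Tox*, a factor of exhausted T cells, averaged 66.8 ± 10.5 CPM in WT and 31.4 ± 12 CPM in *Cat-Tg* CD4+ post-tx libraries.

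With transfer, 11 of the 15 transcription factors rose and 1 fell in *Cat-Tg* CD8+ libraries, where 8.73% and 5.25% of all genes did. WT CD8+ libraries had 4 that rose and 3 that fell (13.2% and 10.4% of all genes), *Cat-Tg* CD4+ libraries 8 and 1 (13.2% and 27.7%), and WT CD4+ libraries 9 and 0 (13.1% and 9.05%). The differences between these counts were not tested. In *Cat-Tg* CD8+ libraries *Prdm1*, which encodes Blimp-1, rose by 4.92, *Tbx21*, which encodes T-bet, rose by 4.44, *Foxp3* rose by 3.30, and *Tcf7*, which encodes TCF-1, a partner of β-catenin, fell 3.28 log2 units, with means of 354 CPM pre-tx and 36.1 CPM post-tx. In WT CD8+ libraries the widest were *Batf* (4.08), *Tbx21* (2.96) and *Tcf7* (-2.65). *Tcf7* did not pass in WT CD4+ libraries, where it averaged 148 CPM pre-tx and 132 CPM post-tx, while in *Cat-Tg* CD4+ libraries it went from 286 to 69.6 CPM (-2.37, edgeR adjusted p = 5.35e-06). These *Tcf7* values were read on the TMM scale only. The mean sum of the 12 T cell genes rose with transfer in WT CD4+ (3180 CPM before, 7080 CPM after). For *Cat-Tg* CD4+ that sum was 7780 CPM before transfer and 6300 CPM after it. The part of the T cell share in the *Tcf7* contrast between genotypes was not tested.

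Transcript models were read from the same tables, and reads shared between models were divided by the quantifier, so these shares carry that uncertainty. *Ctla4* was mostly the full-length Ctla4-201, with a share of its TPM from 75% in *Cat-Tg* CD8+ to 99.3% in WT CD8+ post-tx libraries, and the remainder was mostly a shorter 614-base transcript. The share of the shorter transcript varied within groups, from 10.9% to 42.1% in WT CD4+ post-tx libraries. For *Icos*, a 3241-base transcript carried 65% of TPM in WT CD4+ and 85.6% in WT CD8+ post-tx libraries, and an 810-base transcript the rest. *Havcr2* was read as Havcr2-201 alone in 3 of the 4 post-tx groups, at 100%, whereas in WT CD4+ pre-tx libraries, at a few CPM, its share ran from 10.5% to 92.4%.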

How the data were processed

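For each of the 24 libraries the authors deposited a table written by kallisto 0.46.2, a version credited to the submitters' processing notes, which also name mm9; the release of the transcript index was not given in the sources used here. The deposited estimated counts are pseudoaligned reads per transcript, not normalized, and the deposited TPM are counts per effective length scaled within a library. Transcript length and effective length stand beside them.

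Of 117497 transcripts, 116428 matched GENCODE M21 (GRCm38) and held 99.64% to 99.76% of a library's counts. Estimated counts were summed to 35868 genes and rounded. Genes above 1 CPM in at least 3 libraries were fitted in edgeR 4.0.16 (R 4.3.3; TMM, quasi-likelihood, one mean per group) for CD8+, for CD4+ and, for CD8+ against CD4+, for all libraries, with Benjamini-Hochberg adjustment over all tested genes. Each SE was taken from the fold change and its F statistic (log2 size over root F). The fits were tested on simulated data. The methods' limma-voom (limma 3.58.1) was an alternative, since counts were at hand, as were DESeq2 1.42.0, its size factors, no filter, length-scaled TPM, a log2 limit of 2, a replicate block and each library left out.

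The genes named were the 10 members and, per role list and comparison, at most the 3 widest called genes; *Tox*, *Tcf7* and *Foxp3* levels were added after their values were seen. Members and lists were chosen with earlier results of these data known. *Tmigd2* was not analysed and *Vtcn1* did not pass the filter. P values measure the spread between libraries, by the methods from 3 WT or *Cat-Tg* mice per group pre-tx and 3 BALB/c recipients per group post-tx. The number of donor mice behind the post-tx libraries was not given in the sources used here. The main CD8+ minus CD4+ fit had no term for the animals that its libraries share.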

Additional observations from a re-analysis of the deposited data

Results flagged for a closer look

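The genotype difference of 10 member and cell type pairs changed between pre-tx and post-tx by the interaction test in edgeR, which is what set them apart. In CD4+ libraries the log2 interactions, *Cat-Tg* minus WT post-tx less the same difference pre-tx, were -5.16 for *Ctla4*, -4.70 for *Icos*, -3.80 for *Cd28*, -3.45 for *Pdcd1*, -3.13 for *Tigit*, -2.86 for *Btla*, -2.73 for *Cd160* and -1.81 for *Lag3*. The *Lag3* value was 0.09 with T cell gene scaling. In CD8+ libraries they were 3.21 for *Havcr2* and 2.53 for *Cd274*. Groups of 3 libraries were not tested for outlying libraries.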

How the results depend on the processing

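Reversals were counted only for member values with an adjusted p of at most 0.05 or at least a 2-fold change in the main fit. Of these, 8 reversed, each with T cell gene scaling only. They were *Btla* (-0.24) and *Cd160* (-0.38) in *Cat-Tg* minus WT CD4+ pre-tx and *Ctla4* (-0.95) in CD8+ pre-tx. For post-tx minus pre-tx they were *Icos* (-0.53) in WT CD8+ and *Cd274* (-0.16) in WT CD4+. The others were the interactions of *Lag3* (0.09) and *Havcr2* (0.07) in CD4+ and of *Ctla4* (0.40) in CD8+. This scaling sets libraries to the same T cell total by construction. Smaller values also changed sign with it, among them *Cd160* (0.96 to -1.26), *Cd28* (0.32 to -1.94) and *Icos* (0.97 to -1.32) in CD8+ pre-tx. In CD4+ pre-tx *Lag3* (to -0.78) and *Havcr2* (to -0.7) did so too. Counts of members called moved by over 1.5 times as follows. T cell gene scaling gave 8 for *Cat-Tg* minus WT CD8+ pre-tx, 4 for CD4+ pre-tx, 1 for CD4+ post-tx, 5 for the CD4+ and 6 for the CD8+ interaction, and 2 for CD8+ minus CD4+ in *Cat-Tg* post-tx. A log2 limit of 2 left 0 in CD4+ post-tx, 4 in CD4+ pre-tx, 3 in *Cat-Tg* CD4+ post-tx minus pre-tx, and for CD8+ minus CD4+ 2 in *Cat-Tg* and 3 in WT post-tx. DESeq2 gave 2 for CD8+ pre-tx and 1 for CD8+ minus CD4+ in WT pre-tx, limma-voom 1 for the CD8+ interaction and 2 for CD8+ minus CD4+ in *Cat-Tg* pre-tx, and length-scaled TPM 3 for the latter. The cause was not tested. Leaving out 1 library gave 0 to 3 for the CD8+ interaction, 3 to 5 for CD4+ post-tx, 0 to 1 for CD8+ pre-tx, 1 to 4 for CD8+ minus CD4+ in *Cat-Tg* pre-tx and 3 to 7 in WT post-tx. Replicate numbers did not pair the libraries: correlations of same-numbered deviations ran from -0.263 to 0.176, and in no comparison did all 3 exceed 0.1. With the replicate block, 1 member was called for the CD8+ interaction and 3 for CD8+ minus CD4+ in *Cat-Tg* pre-tx, and no other count moved by over 1.5 times. All 10 members passed the filter in each fit, and no alternative varied the depth. Shares of all genes called stand above for T cell gene scaling. They are not given for the other settings of this paragraph, whose counts describe the members only.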

Other observations

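Over the 24 libraries, the genes whose log2 CPM followed the members most closely were often other members, described here by Pearson r with no test, since libraries share mice and cell composition. *Pdcd1* was most like *S100a4* (r = 0.972), *Tigit* (0.969) and *Lag3* (0.963). Within the 12 post-tx libraries *Pdcd1* followed *Lag3* (0.922) more closely than *Tigit* (0.537). Within the 12 pre-tx libraries the order was the other way, with *Tigit* at 0.932 and *Lag3* at 0.841. *Icos* and *Ctla4* had r = 0.912, *Icos* and *Srgn* 0.912, and *Icos* and *Cd28* 0.893. *Havcr2* was most like *Prc1*, *Slamf7* and *Mki67*, each at r = 0.931, of which *Prc1* and *Mki67* are genes of dividing cells. *Btla* was most like *Ddx5* (0.921) and *Zdhhc17* (0.914), and *Cd274* was most like *Nin* (0.867) and the interferon-induced *Oas2* (0.862). *Cd28* was most like *Larp7* (0.897), *Cd160* like *Higd1a* (0.884), *Tigit* like *Pdcd1* (0.969) and *Miga1* (0.942), and *Lag3* like *Pdcd1* (0.963) and *S100a6* (0.941).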
